A study of Mus musculus with 6 samples.

Results

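The report covers 46 genes of autophagy and the lysosome, chosen by gene symbol from the 24391 gene rows of the deposited tables. They comprise 25 genes of the autophagy machinery, 3 transcription factors of the MiT/TFE family and 18 lysosomal genes, of which 13 encode lumenal hydrolases or their cofactors and 5 encode membrane proteins. All 46 symbols were found, and all 46 passed the filter on low counts, with 106 to 80195 counts per library. RNA sequencing was done on the mouse line GT1-7, which was derived from a hypothalamic tumour of a mouse carrying a viral oncogene under the promoter of the gonadotropin-releasing hormone gene. It is a single line, labelled as wild type and as resembling GnRH neurons. In the AVP group, 3 cultures received arginine vasopressin (AVP), a hypothalamic peptide hormone, at 200 pg/mL for 6 h. In the control group, 3 cultures received vehicle according to one label, while another calls them untreated. Both groups were grown in serum-containing high-glucose medium, then deprived of serum for 12 h before treatment, so the controls are serum-starved cells too.

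Autophagy delivers cytoplasm to the lysosome. A kinase complex built on ULK1 starts the process, a lipid kinase complex marks the forming membrane, and ubiquitin-like conjugation enzymes attach LC3 and GABARAP proteins to it, to which receptors such as p62 tether their cargo. The lysosome then degrades the cargo with acid hydrolases behind a membrane rich in LAMP proteins, and the transcription factors TFEB and TFE3 are known to activate many of these genes when nutrients are scarce. In neurons, which do not dilute waste by dividing, this clearance is known to protect against protein aggregates.

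Total counts per library were 35597040 to 37418318 with AVP and 34908867 to 36826004 in controls, where 3 counts correspond to 0.0802 to 0.0859 CPM, counts scaled to a common library total. Control replicate 1 stood apart with 0.995% of its counts on the ribosomal precursor Rn45s, while the remaining 5 libraries had 0.139 to 0.245%. Genes with a count numbered 16674 to 16739 in the AVP libraries and 16166 to 16403 in the control libraries. The AVP libraries also held more of the nuclear RNA Malat1 (1499 to 1724 CPM, against 499 to 1106 CPM). The part of these differences in the results was not tested. Of 12 neuronal and GnRH markers, 11 were tested, with a summed level of 1802 to 1911 CPM with AVP and 1671 to 1719 CPM in controls. The sum hides opposite changes: 6 markers were called higher and 1 lower, against 28.7% and 28.8% of all tested genes. The lower one was Chga, with 529 ± 13.8 CPM with AVP and 783 ± 25.2 CPM in controls (SD). Gnrh1 itself lay at 0.418 CPM with AVP and 0.483 CPM in controls, and the neuronal gene Stmn2 had 1 count over the AVP libraries and 0 over the control libraries, which allows up to 3 counts per library. None of 8 markers of microglia and macrophages, cells rich in lysosomes, passed the filter, and together they reached 0.197 to 0.401 CPM with AVP and 0.306 to 0.570 CPM in controls. Of the other markers, 5 for astrocytes summed to 172 to 225 CPM with AVP and 110 to 130 CPM in controls, nearly all from Slc1a2, and 5 for oligodendrocytes to 17.3 to 19.4 CPM and 47.4 to 52.6 CPM, nearly all from Mbp. The 7 markers of fibroblasts and endothelium summed to 257 to 287 CPM with AVP and 321 to 350 CPM in controls, mostly from Kdr, and the part of these 3 lists in the results was not tested.

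In these bulk samples, where fewer cells of a type and less RNA per cell cannot be told apart, transcripts of the autophagy machinery and of the lysosomal hydrolases were mostly lower with AVP, by small amounts. Among the conjugation genes 2 of 7 fell (28.6%) and among the lysosomal membrane genes 1 of 5 (20.0%), near the 28.8% of all tested genes, and differences between the role groups were not tested. At an adjusted p under 0.05 (edgeR quasi-likelihood test over all genes), 29 of the 46 genes fell, 2 rose and 15 did not pass. Over all 14163 tested genes 28.8% fell and 28.7% rose, together 57.5%, against 63.0% and 4.35% of the 46. Among the 11281 genes at least as highly expressed as Mitf, the lowest of the 46, 32.4% fell and 30.7% rose. The median log2 fold change of the 46 was -0.20, against 0.01 over all tested genes. The median absolute log2 fold change was 0.24, against 0.32 over all tested genes. The latter include genes less expressed than any of the 46, and sizes of change were not compared at matched level. A change of at least 0.4 on the log2 scale was called for 12 of the 46 (26.1%), against 34.5% of all tested genes, and a change of at least 2-fold for 1 (2.17%), against 10.0%. The AVP and control values did not overlap for 29 of the 46 with AVP lower (31.4% of all tested genes) and for 5 with AVP higher (32.0%; both directions together 63.4%). The genes were chosen with earlier results of these data known, so these shares describe them and carry no test of the list.

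The autophagy machinery and the lysosomal genes were set side by side as whole classes, without a test of the difference between them. Of the 25 machinery genes 17 fell (68.0%), 1 rose and 7 did not pass, with a median log2 fold change of -0.23. Of the 18 lysosomal genes 10 fell (55.6%), 1 rose and 7 did not pass, with a median of -0.15. Without control replicate 1 the falls numbered 15 and 10 and the rises 1 and 1. Without AVP replicate 2 the falls numbered 16 and 8 and the rises 3 and 2, and the lysosomal rises also numbered 2 without control replicate 2 or control replicate 3. Where the test asked for more than a 1.2-fold change, 8 of the 25 machinery genes and 5 of the 18 lysosomal genes were lower and 0 higher, against 16.5% of all tested genes lower and 15.5% higher (by edgeR's glmTreat).

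**Figure D1:**
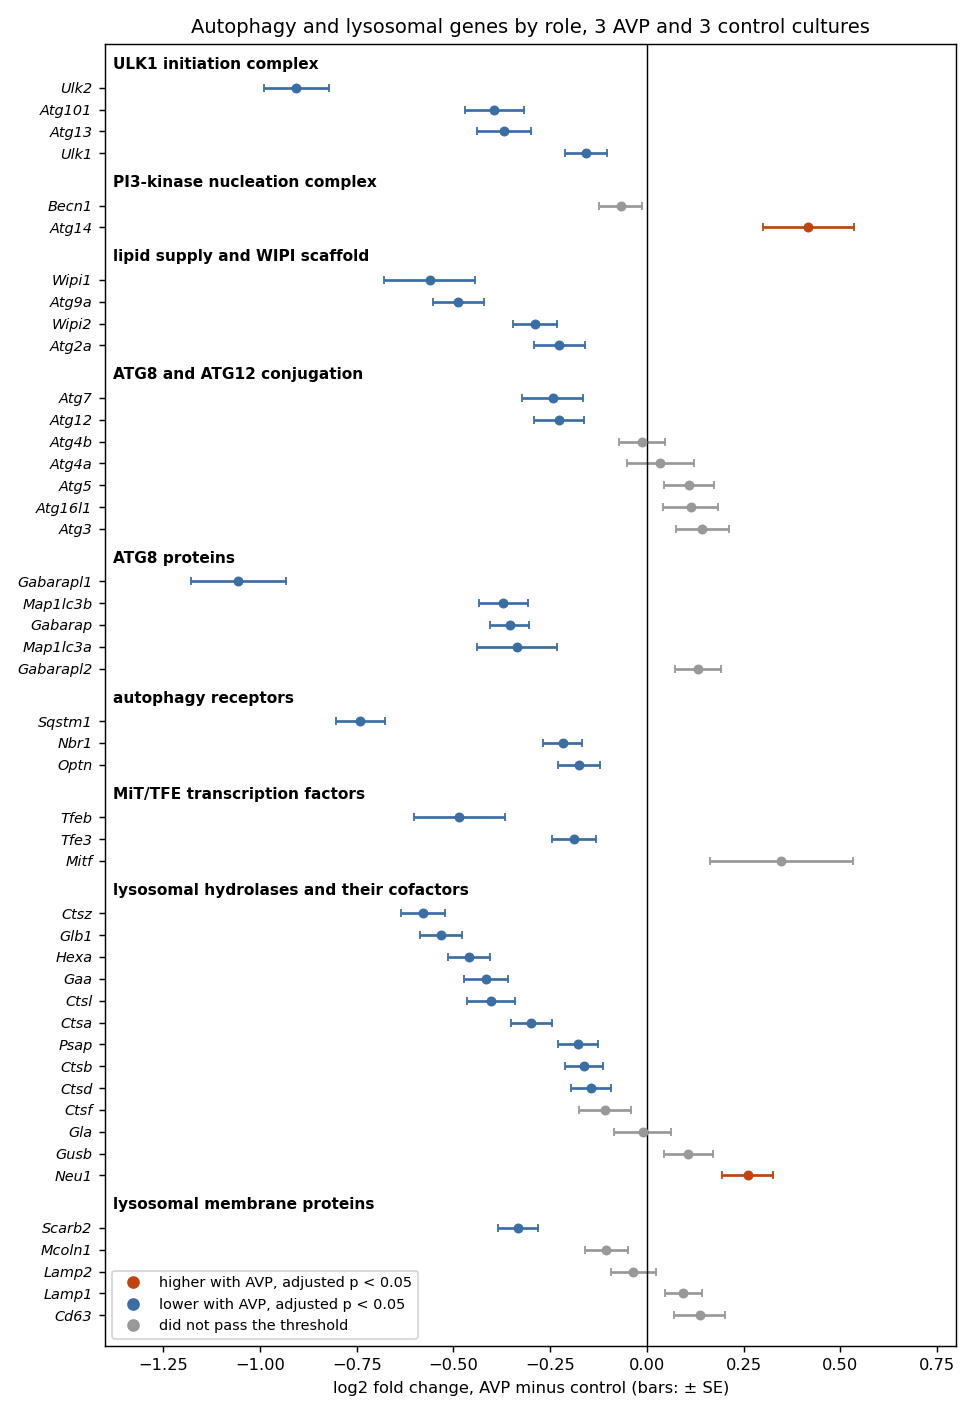
Log2 fold change (AVP minus control) with its standard error for each of the 46 genes, grouped by role and ordered by size within a role (3 AVP and 3 control cultures). Points in blue fell and points in red rose at an adjusted p under 0.05, and grey points did not pass; all genes of the initiation, lipid supply and receptor groups and 4 of 5 ATG8 genes are blue, and 5 of 7 conjugation genes and 4 of 5 membrane genes are grey.

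The 4 measured genes of the ULK1 initiation complex all fell, against 28.8% of all tested genes. Ulk2, which encodes a kinase related to ULK1 (GRCm38 chromosome 11, 61775649 to 61855073, minus strand), was measured at 39.7, 37.9 and 31.0 CPM in the AVP cultures and 69.6, 65.7 and 68.1 CPM in the control cultures. Every AVP culture lay far below every control culture, and the level fell by 0.91 on the log2 scale (SE 0.08, adjusted p = 2.41e-07). Ulk1, the main initiating kinase gene, was 105 ± 4.06 CPM with AVP and 117 ± 3.20 CPM in controls (SD, n = 3 each), a log2 fold change of -0.16 (SE 0.05, adjusted p = 0.021). The call for Ulk1 was lost without AVP replicate 1 (adjusted p = 0.0648) or AVP replicate 3 (0.0713), and with library size alone as scaling (0.0656). Atg13 and Atg101, which encode the subunits that hold the kinase complex together, fell by 0.37 and 0.39.

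Of the 2 measured lipid kinase complex genes, 1 rose, against 28.7% of all tested genes, and 1 did not pass. Becn1, which encodes the scaffold Beclin 1, was 121 ± 5.27 CPM with AVP and 127 ± 4.75 CPM in controls, and its log2 fold change of -0.07 (SE 0.06) did not pass. Atg14, which encodes the subunit that directs Beclin 1 to autophagy, was at 11.5, 12.5 and 14.0 CPM with AVP and 8.79, 9.99 and 9.66 CPM in controls. All 3 AVP values were above all control values, and Atg14 rose by 0.42 (SE 0.12, adjusted p = 0.00657), the only machinery gene to do so.

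The 4 genes of the 46 that supply and mark the growing membrane all fell, against 28.8% of all tested genes. Atg9a encodes the lipid scramblase carried by the seed vesicles of the autophagosome. It was measured at 45.9, 51.3 and 48.6 CPM with AVP and 70.1, 65.6 and 68.7 CPM in controls, and it fell by 0.49 (SE 0.07, adjusted p = 1.25e-05). Wipi1, which encodes a protein that reads the lipid mark, had 8.16, 7.51 and 8.03 CPM with AVP and 12.6, 11.1 and 11.3 CPM in controls. The AVP cultures lay close together and below all controls, with a fall of 0.56 (SE 0.12, adjusted p = 0.000705). Its relative Wipi2, which recruits the conjugation machinery, fell by 0.29, and Atg2a, which encodes a lipid transfer protein, fell by 0.23.

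Most of the 7 genes of the conjugation system did not pass the test. Atg7, the activating enzyme gene, was 32.7 ± 2.04 CPM with AVP and 38.7 ± 2.13 CPM in controls and fell by 0.24, but the call was lost without AVP replicate 3 (adjusted p = 0.0633) or control replicate 1 (0.0520). Atg12, the ubiquitin-like protein gene, was 62.3 ± 2.30 CPM with AVP and 73.0 ± 4.60 CPM in controls and fell by 0.23. Its conjugation partner Atg5 had a log2 fold change of 0.11, Atg16l1, which completes their complex, 0.11, and the LC3-conjugating enzyme gene Atg3 0.14, and none passed. The protease genes Atg4a and Atg4b, whose products prime and release LC3, had log2 fold changes of 0.03 and -0.01 with standard errors of 0.09 and 0.06. The value of Atg3 passed without AVP replicate 2 (adjusted p = 0.0350) and with library size alone (0.0340), in both cases as a rise.

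Genes of the ATG8 family, whose products coat the autophagosome membrane, moved unequally. Gabarapl1 (chromosome 6, 129533160 to 129542346, plus strand) had the largest change of the 46 genes and was the only one changed by at least 2-fold. It was measured at 25.7, 28.1 and 34.4 CPM in the AVP cultures and at 69.0, 62.9 and 51.5 CPM in the control cultures. The groups did not overlap, with an SD of 4.47 CPM among the AVP cultures and 8.91 CPM among the control cultures, and the fall was 1.06 on the log2 scale (SE 0.12, adjusted p = 2.10e-05). Gabarap was 256 ± 1.80 CPM with AVP and 328 ± 14.9 CPM in controls and fell by 0.35. Map1lc3b, which encodes the LC3 protein commonly used to stain autophagosomes, was 196 ± 7.60 CPM with AVP and 253 ± 23.3 CPM in controls and fell by 0.37. Map1lc3a fell by 0.34 (adjusted p = 0.0124), a call lost without AVP replicate 2 (0.0656) or control replicate 1 (0.0504). Gabarapl2 went the other way in value, with 141 ± 10.4 CPM with AVP and 129 ± 4.06 CPM in controls. Its log2 fold change of 0.13 did not pass (adjusted p = 0.0693), but did so without AVP replicate 2 (0.0341) and with library size alone (0.0242).

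The ATG8 genes also took different shares of the family's summed level, described here without a test. Per length (CPM per kilobase of annotated exon), Gabarap made up 51.5 ± 1.90% of the summed level of the 5 genes with AVP and 53.2 ± 1.33% in controls. Gabarapl1 made up 4.78, 5.31 and 6.12% in the AVP cultures and 9.74, 9.16 and 8.26% in the control cultures. Gabarapl2 made up 22.3, 21.6 and 23.5% in the AVP cultures and 16.0, 16.5 and 17.2% in the control cultures. The shares of these 2 genes did not overlap between the groups, whereas those of Map1lc3a and Gabarap did. ATG8 genes resemble each other, and the treatment of reads that fit several genes is unknown, which makes the counts of each uncertain.

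All 3 autophagy receptor genes chosen for the report fell, against 28.8% of all tested genes. Receptors did not fall as a whole: of 11 other receptor genes tested, 4 fell and 2 rose. Sqstm1, which encodes p62, a receptor for ubiquitin-tagged cargo (chromosome 11, 50199366 to 50210827, minus strand), was measured at 392, 385 and 444 CPM in the AVP cultures and 726, 678 and 635 CPM in the control cultures. The highest AVP value lay well below the lowest control value, and the log2 fold change was -0.74 (SE 0.06, adjusted p = 1.67e-07). Nbr1, a receptor gene related to p62, fell by 0.22, and Optn, which encodes optineurin, a receptor for damaged mitochondria, fell by 0.18. Tested against a fold of 1.2 (glmTreat), Sqstm1 stayed lower, while Nbr1 and Optn did not pass. The summed level of the 3 genes was 689 ± 31.6 CPM with AVP and 1005 ± 39.1 CPM in controls, the largest proportional difference among the 9 role groups (31.4% lower).

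**Figure D2:**
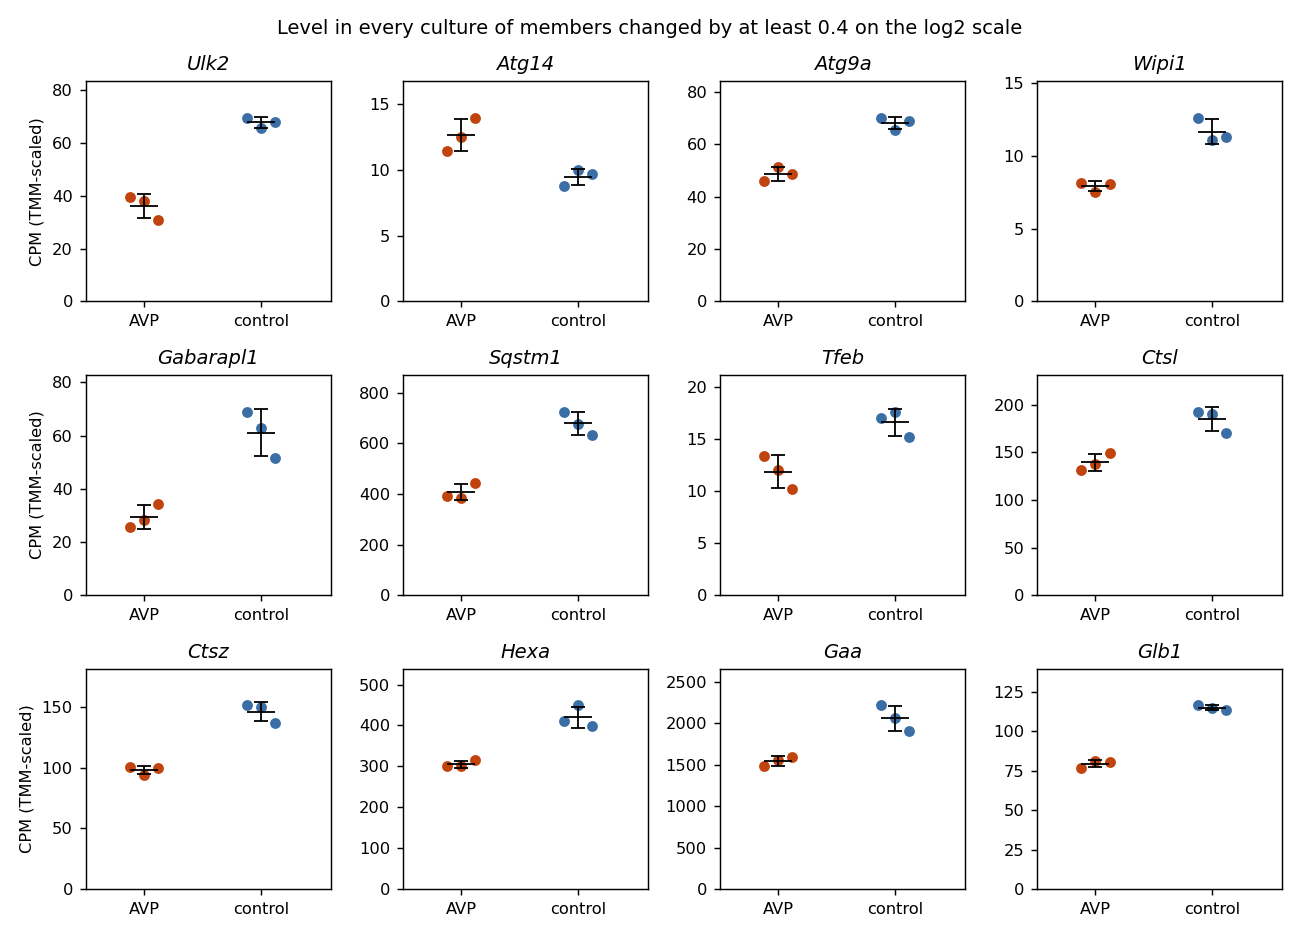
Level in CPM (scaled with TMM factors) in each of the 3 AVP cultures (red, left) and 3 control cultures (blue, right) for the 12 genes called with a change of at least 0.4 on the log2 scale. Horizontal marks and bars are the mean and SD; the groups do not overlap in any panel, with AVP higher for Atg14 and lower for the other 11 genes.

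The transcription factors that drive this gene programme were low to moderate in level. Tfeb (chromosome 17, 47737030 to 47792419, plus strand) was measured at 13.4, 12.0 and 10.2 CPM with AVP and 17.0, 17.6 and 15.1 CPM in controls. The groups did not overlap, and Tfeb fell by 0.48 (SE 0.12, adjusted p = 0.00228). Tfe3 was 107 ± 4.74 CPM with AVP and 122 ± 4.80 CPM in controls and fell by 0.19. Mitf, the least abundant of the 46 genes, was 4.67 ± 0.756 CPM with AVP and 3.67 ± 0.533 CPM in controls and did not pass (log2 fold change 0.35, SE 0.18). The activity of these factors is known to be set largely by their movement into the nucleus, which transcript counts do not measure.

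Of the 13 genes of lysosomal hydrolases and their cofactors, 9 fell (69.2%), 1 rose (7.69%) and 3 did not pass. Over all tested genes 28.8% fell and 28.7% rose. Gaa encodes acid alpha-glucosidase, which breaks down glycogen in the lysosome (chromosome 11, 119267887 to 119285454, plus strand). It was measured at 1485, 1558 and 1597 CPM with AVP and 2218, 2059 and 1914 CPM in controls, the highest CPM of all 46 genes. Every AVP culture was below every control culture, and Gaa fell by 0.42 (SE 0.06, adjusted p = 1.54e-05). Hexa encodes the alpha subunit of beta-hexosaminidase, which degrades GM2 ganglioside. It was at 301, 299.9 and 315 CPM with AVP and 410, 449 and 400 CPM in controls, and fell by 0.46 (SE 0.05, adjusted p = 2.97e-06).

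The genes of a lysosomal enzyme complex moved apart. Cathepsin A, encoded by Ctsa, is known to hold and protect beta-galactosidase (Glb1) and the sialidase NEU1. Glb1 (chromosome 9, 114401076 to 114474898, plus strand) was measured at 77.0, 80.9 and 80.5 CPM with AVP and 117, 115 and 113 CPM in controls. Both groups were tight and far apart, with a fall of 0.53 (SE 0.05, adjusted p = 5.95e-07). Ctsa was 206 ± 5.39 CPM with AVP and 253 ± 11.0 CPM in controls and fell by 0.30. Neu1, by contrast, was at 135, 143 and 160 CPM with AVP and 122, 130 and 115 CPM in controls, and it rose by 0.26 (SE 0.07, adjusted p = 0.00324), the only lysosomal gene of the 18 to do so.

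Among the cathepsin proteases, the falls were of unequal size. Ctsz, encoding the carboxypeptidase cathepsin Z (chromosome 2, 174427493 to 174439039, minus strand), was measured at 100.2, 94.0 and 99.2 CPM with AVP and 151, 150 and 137 CPM in controls. It had the largest fall of the lysosomal genes, by 0.58 (SE 0.06, adjusted p = 4.78e-07). Ctsl, encoding the endopeptidase cathepsin L, was at 132, 138 and 149 CPM with AVP and 193, 191 and 170 CPM in controls, without overlap, and fell by 0.40 (SE 0.06, adjusted p = 4.67e-05). Ctsb and Ctsd, the more abundant cathepsins B and D, fell by 0.16 and 0.15 only. The call for Ctsb was lost without AVP replicate 2 (adjusted p = 0.0527) or control replicate 2 (0.0660). That for Ctsd was lost without AVP replicate 1 (0.0975), AVP replicate 2 (0.0764), control replicate 1 (0.0634) or control replicate 2 (0.117). The Ctsd call was also lost with library size alone (0.0758) and with a replicate block (0.0525).

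The remaining lumenal genes changed little. Psap, whose product is cut into the saposins that help lipid-degrading enzymes, was 1192 ± 30.1 CPM with AVP and 1348 ± 71.1 CPM in controls and fell by 0.18. Gla, encoding alpha-galactosidase A, was 72.0 ± 7.98 CPM with AVP and 72.5 ± 1.97 CPM in controls (log2 fold change -0.01, SE 0.07). Gusb, encoding beta-glucuronidase, and Ctsf, encoding cathepsin F, had log2 fold changes of 0.11 and -0.11 that did not pass. Both passed without control replicate 3, Gusb as a rise (adjusted p = 0.0419) and Ctsf as a fall (0.0431). The summed level of the 13 genes was 5178 ± 155 CPM with AVP and 6252 ± 303 CPM in controls, 17.2% lower.

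Of the 5 lysosomal membrane genes, 1 fell (20.0%, against 28.8% of all tested genes) and 4 did not pass. Lamp1, whose product lines the lysosomal membrane, was at 1018, 994 and 1012 CPM with AVP and 934, 979 and 921 CPM in controls. The 3 AVP values were above all control values, but the log2 fold change of 0.09 (SE 0.05) did not pass (adjusted p = 0.104), except with library size alone (0.0287). Lamp2, needed for fusion of autophagosomes with lysosomes, was 378 ± 21.8 CPM with AVP and 387 ± 24.3 CPM in controls. Mcoln1, a lysosomal calcium channel gene, had a log2 fold change of -0.11 and passed without control replicate 1 (adjusted p = 0.0481). Cd63, a tetraspanin gene, had a log2 fold change of 0.14 and passed as a rise without AVP replicate 2 (0.0188) or control replicate 2 (0.0495), and with library size alone (0.0381). Scarb2, which encodes the membrane protein LIMP-2, was 198 ± 9.52 CPM with AVP and 249 ± 2.63 CPM in controls and fell by 0.33 (SE 0.05, adjusted p = 4.97e-05). The summed level of the 5 membrane genes was 2140 ± 68.5 CPM with AVP and 2111 ± 84.3 CPM in controls.

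**Figure D3:**
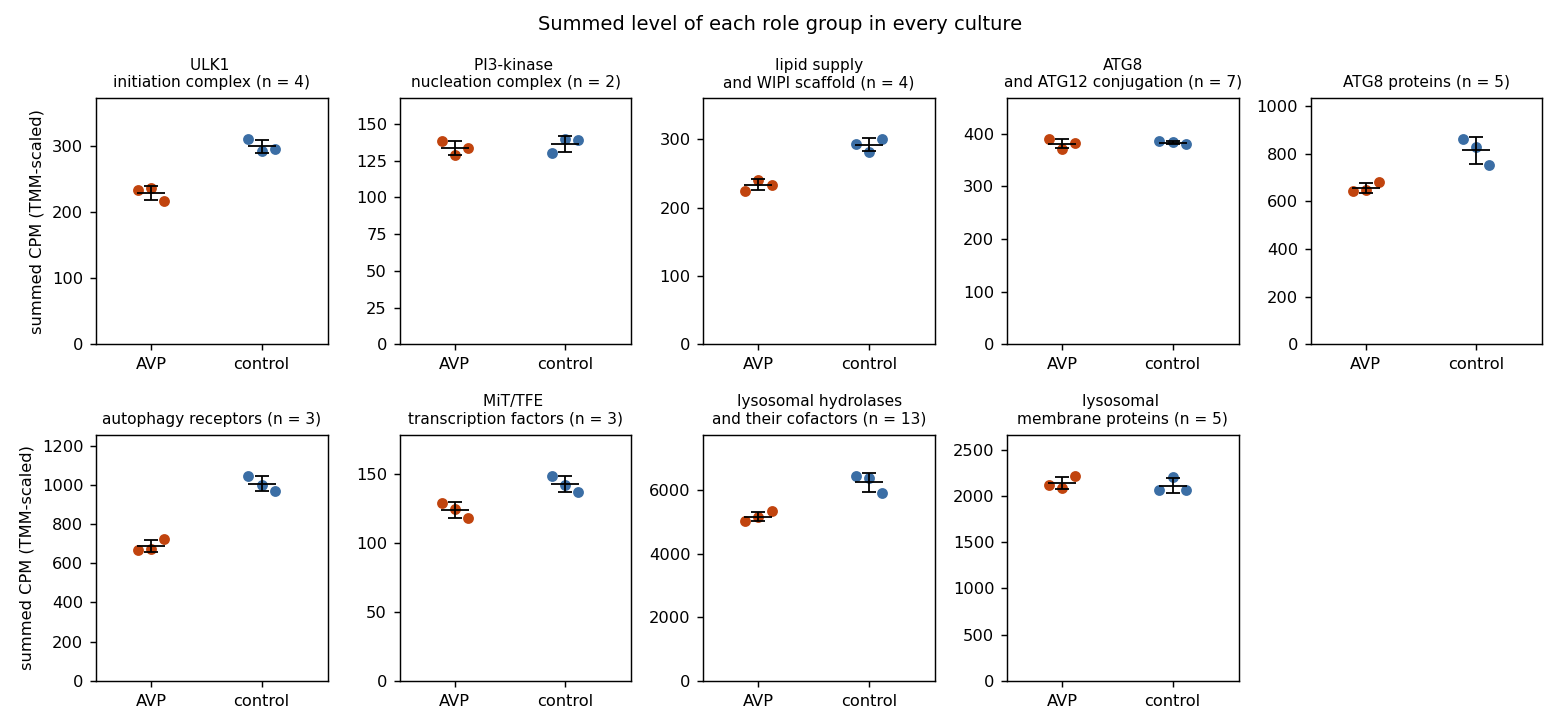
Summed CPM (scaled with TMM factors) of each of the 9 role groups in each of the 3 AVP cultures (red, left) and 3 control cultures (blue, right), with mean and SD; n is the number of genes summed, and each vertical axis starts at 0. Sums are lower in every AVP culture for the initiation, lipid supply, ATG8, receptor, transcription factor and hydrolase groups, and overlap for the nucleation, conjugation and membrane groups.

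Sums of a role group are led by its most abundant genes, and are given without a test. The initiation genes summed to 229 ± 11.0 CPM with AVP and 299.9 ± 9.78 CPM in controls, and the lipid supply genes to 233 ± 8.04 and 292 ± 9.45 CPM. The conjugation genes summed to 381 ± 9.09 CPM with AVP and 383 ± 2.85 CPM in controls.

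The highest levels per length belonged to lysosomal genes in both groups. In CPM per kilobase of annotated exon, Psap was highest, with 434 ± 11.0 with AVP and 491 ± 25.9 in controls. In the AVP cultures Lamp1 (377 ± 4.67) came next and Gaa (323 ± 11.9) after it, while in the controls Gaa (431 ± 31.8) came before Lamp1 (353 ± 11.4). Ctsd followed in both groups, with 233 ± 7.75 with AVP and 258 ± 12.9 in controls. Below it in the controls, Hexa (210 ± 13.0) and Sqstm1 (203 ± 13.6) lay within each other's spread. In the AVP cultures Hexa (153 ± 4.16) stood above Sqstm1 (121 ± 9.61), with Gabarap (139 ± 0.977) between them. Mitf was lowest, with 0.754 ± 0.122 with AVP and 0.592 ± 0.0860 in controls. Above it in the AVP cultures came Wipi1 (1.79 ± 0.0784), Tfeb (2.09 ± 0.279) and Atg14 (2.93 ± 0.290). In the controls the order was Atg14 (2.19 ± 0.143), Wipi1 (2.64 ± 0.189) and Tfeb (2.92 ± 0.226). The lengths are of all annotated exons of a gene together, which understates genes with long exons that these cells do not use.

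TFEB and its relatives are known to bind the CLEAR element, an extended E-box found in promoters of many lysosomal genes, so promoters were searched for its letters. The window was the 250 bases before each RefSeq start (GRCm38.p6), which matched 41 of the 46 genes, and both strands were read. The E-box CACGTG was present for 9 of 17 lysosomal genes (52.9%) and 3 of 21 machinery genes (14.3%), against 9.68% of 10644 tested genes with a promoter. The longer form TCACGTGA, each copy of which holds an E-box, was present for Atg3, Ctsa, Ctsd, Gla and Mcoln1, 12.2% of the 41 genes against 1.65% of the tested genes. The E-box was found for 6 of 26 genes that fell (23.1%) and for 6 of 15 that did not (40.0%). The letters TGATGNAA, the response element of the amino acid response, were present for Ctsl alone (2.44%, against 2.41% of the tested genes). A match is a description of letters and not of binding. Promoters of 2 hydrolase genes that fell and of 2 membrane genes that did not pass are shown because all 4 hold E-boxes, which stand in capitals. They are written 5′ to 3′ and end before the gene's first annotated base in GENCODE M21.
Glb1, chr9:114400828-114401075, plus strand: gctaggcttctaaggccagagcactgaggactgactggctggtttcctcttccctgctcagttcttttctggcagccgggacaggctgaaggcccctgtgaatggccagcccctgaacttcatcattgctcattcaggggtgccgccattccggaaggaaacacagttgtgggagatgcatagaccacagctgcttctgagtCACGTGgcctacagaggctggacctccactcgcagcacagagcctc
Gaa, chr11:119267713-119267886, plus strand: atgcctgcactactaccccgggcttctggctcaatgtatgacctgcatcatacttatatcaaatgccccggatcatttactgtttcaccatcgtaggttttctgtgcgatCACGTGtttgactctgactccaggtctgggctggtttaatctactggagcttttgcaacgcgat
Lamp1, chr8:13158911-13159160, plus strand: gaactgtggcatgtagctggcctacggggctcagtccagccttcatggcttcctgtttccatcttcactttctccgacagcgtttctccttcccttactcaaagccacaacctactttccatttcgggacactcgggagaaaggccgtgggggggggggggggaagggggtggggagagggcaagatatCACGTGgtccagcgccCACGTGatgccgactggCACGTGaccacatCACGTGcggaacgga
Mcoln1, chr8:3500269-3500456, plus strand: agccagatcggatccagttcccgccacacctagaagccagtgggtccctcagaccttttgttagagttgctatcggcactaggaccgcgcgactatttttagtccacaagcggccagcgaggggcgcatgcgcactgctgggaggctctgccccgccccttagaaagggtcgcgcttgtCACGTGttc

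Glb1 and Gaa hold 1 E-box each, 46 and 64 bases before their GENCODE M21 gene starts, and fell by 0.53 and 0.42. Lamp1 holds 4, between 61 and 15 bases before its gene start, and its log2 fold change was 0.09. Mcoln1 holds 2 in the searched window, and its log2 fold change was -0.11. The printed stretch of Mcoln1 shows the one 9 bases before its gene start. The longer form TCACGTGA was at the other one, which is not printed. These 4 promoters were chosen by their calls and their E-boxes, so nothing is read from them about the fold changes.

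Other genes of the pathway, listed by function but with earlier results of these data known, moved about as often up as down. Of 132 such genes found in the tables, 128 were tested, of which 39 fell (30.5%), 33 rose (25.8%) and 56 did not pass, with a median log2 fold change of -0.03. Over all tested genes 28.8% fell and 28.7% rose. Atp6v0c, a V-ATPase subunit gene used by most cells, had 17 counts over the AVP libraries and 3 over the control libraries and was not tested. The treatment of reads that fit several genes is unknown, so the level of Atp6v0c is uncertain.

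Further autophagy genes moved both ways. Of 22 other core genes, 7 fell (31.8%) and 4 rose (18.2%), against 28.8% and 28.7% of all tested genes. Epg5 and Tecpr1, which act in fusion with the lysosome, fell by 0.66 and 0.62, and Wdr45, a WIPI relative, fell by 0.57. Atg16l2, a relative of Atg16l1, rose by 0.88, the fusion gene Snap29 by 0.60 and Atg2b by 0.32, whereas its relative Atg2a fell. Of 11 other receptor genes, 4 fell (36.4%) and 2 rose (18.2%). The endoplasmic reticulum receptor genes Tex264 and Ccpg1 fell by 0.69 and 0.20 and Calcoco1 by 0.53, whereas Retreg1, another receptor of that organelle, was 177 ± 6.52 CPM with AVP and 111 ± 5.92 CPM in controls and rose by 0.67. Tax1bp1 rose by 0.18.

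Further lysosomal enzymes also moved both ways. Of 32 tested, 12 fell (37.5%) and 7 rose (21.9%), against 28.8% and 28.7% of all tested genes. Naglu and Arsa, of heparan sulfate and sulfatide breakdown, fell by 0.90 and 0.71. Ppt1 and Ids rose by 0.30 and 0.31. Ctsc, Ctss and Acp5 had 0, 2 and 6 counts over the AVP libraries and 0 each over the control libraries, where a count of 0 allows up to 3 counts per library, and were not tested.

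Membrane, pump and sorting genes moved both ways too. Of 17 other membrane proteins 5 fell (29.4%) and 6 rose (35.3%), against 28.8% and 28.7% of all tested genes. Slc17a5, the sialic acid exporter gene, was 16.9 ± 0.922 CPM with AVP and 38.7 ± 0.945 CPM in controls and fell by 1.19, and Lamp5, a neuronal LAMP relative, was 1.99 ± 0.221 CPM with AVP and 10.3 ± 0.596 CPM in controls and fell by 2.36. Tmem192 fell by 0.28, while the transporter gene Abca2 rose by 0.75, Laptm4b by 0.36 and Mfsd8 by 0.51. Of 17 subunits of the V-ATPase, the proton pump that acidifies the lysosome, 4 fell (23.5%) and 5 rose (29.4%). Atp6v1a, its catalytic subunit gene, was 474 ± 6.75 CPM with AVP and 329 ± 3.17 CPM in controls and rose by 0.53. Atp6v1c1 and Atp6v0a2 rose by 0.30, and Atp6v1g1, Atp6v1g2 and Atp6v1d fell by 0.33, 0.78 and 0.24.

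Of 10 genes that act in sorting proteins to the lysosome, through mannose-6-phosphate or otherwise, 5 rose and 2 fell. Gga3, Gnptab and Nagpa rose by 0.49, 0.33 and 0.52, and Gga1 and the sorting receptor gene Sort1 fell by 0.36 and 0.21. Of 19 genes that control mTORC1 and TFEB at the lysosome, 4 rose (21.1%) and 5 fell (26.3%). Rheb, the activator of mTORC1, was 108 ± 3.25 CPM with AVP and 179 ± 4.53 CPM in controls and fell by 0.73, Lamtor2 fell by 0.57 and Rraga by 0.22. Tsc1, whose product restrains RHEB, was 89.3 ± 3.31 CPM with AVP and 61.9 ± 1.50 CPM in controls and rose by 0.53, Lamtor1 by 0.52 and Fnip1 by 0.43.

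**Figure D4:**
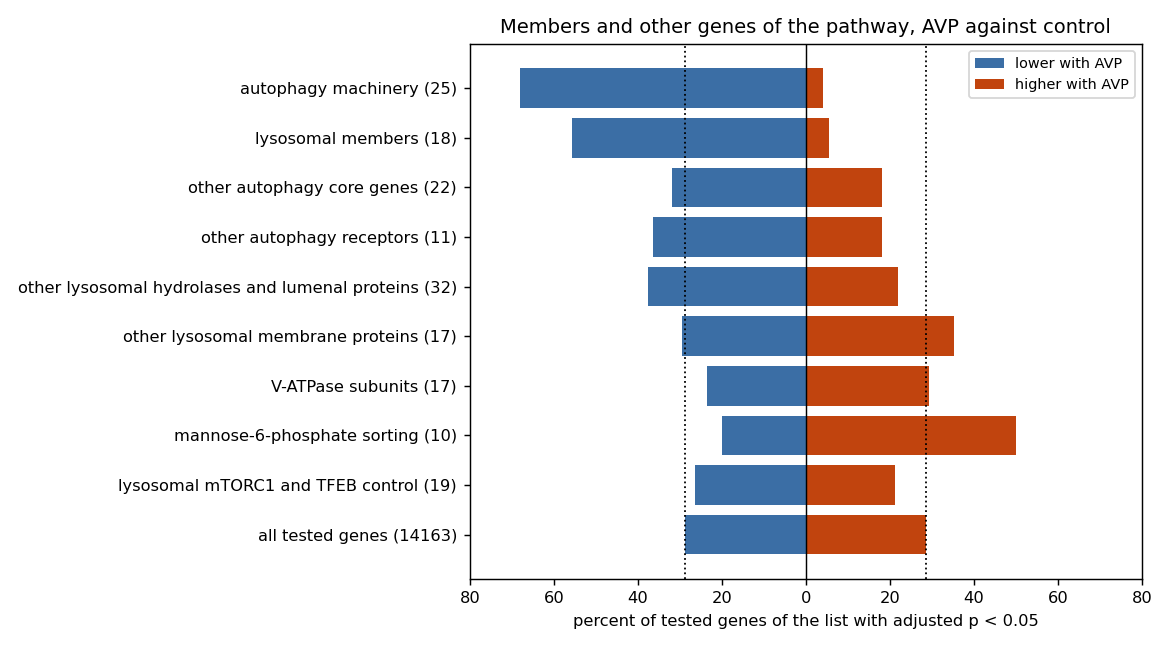
Percentage of tested genes of each list that were lower (blue, left) or higher (red, right) with AVP at an adjusted p under 0.05, with the number tested in parentheses; dotted lines mark 28.8% lower and 28.7% higher over all 14163 tested genes. The autophagy machinery (68.0% lower) and lysosomal members (55.6% lower) extend past the left line, while the other lists reach 20.0 to 37.5% lower.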

How the data were processed

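Per the labels' protocols, TRIzol RNA of 6 cultures was sequenced on an Illumina HiSeq instrument. For each sample the authors deposited counts, whole numbers listed by gene symbol. Per the submitters' processing notes the builds were mm10 and GRCm38. Aligner, counter, annotation and strand use: not given in the sources used here, so counts of overlapping genes and similar copies are uncertain. Of the 24391 rows, 27 had symbols turned into dates and were kept unnamed.

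Counts were analysed with edgeR 4.0.16 in R 4.3.3: filterByExpr (minimum count 10), TMM factors, 1 model of all 6 samples without covariates, the robust quasi-likelihood test and Benjamini-Hochberg adjustment over all genes. Log2 fold changes are AVP minus control, with SE taken as their size over the root of F. CPM are TMM-scaled for tested genes and of total counts for markers and libraries. No 2 libraries of 1 group agreed within sampling noise (chi-square per degree of freedom 7.46 or more). The fit was tested on simulated data. Replicates are biological per the labels. Exon lengths and positions are from GENCODE M21 (GRCm38) and promoter sequences from RefSeq (GRCm38.p6). Rubcn and Retreg1 were matched through older symbols.

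The members and all lists were chosen with earlier results of these data known. All 46 members are named; those called with a change of at least 0.4 get every value, and each other pathway list gives up to 3 rises and 3 falls with the smallest p at a mean of at least 5 CPM. Some genes this rule names are not reported here. Values per culture of Neu1 and Lamp1, and counts of Atp6v0c, Ctsc, Ctss and Acp5, were added after they were seen. The alternatives were DESeq2 1.42.0, limma-voom (limma 3.58.1), library size alone, factors by RLE or upper quartile, a mean count of at least 50, no filter, an adjusted p under 0.01, glmTreat at a fold of 1.2, the replicate number as a block, and each sample left out in turn.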

Additional observations from a re-analysis of the deposited data

How the results depend on the processing

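No called gene of the 46 changed direction under the 16 alternatives, and 14 of the 31 called genes kept their call under all of them. The calls of the 46 were the same with DESeq2, limma-voom, RLE and upper-quartile factors, no filter and a mean of at least 50 counts. With library size alone the rises numbered 6 of the 46, 3 in the machinery and 3 among lysosomal genes, and the machinery median was -0.19. Against a fold of 1.2, 2197 genes were higher and 2332 lower in all, and of the 46 genes 0 were higher and 14 lower (machinery 0 and 8, lysosomal 0 and 5). With 1 sample left out, falls of the 46 ranged from 26 to 30 and rises from 2 to 5, rises of the machinery from 1 to 3 and of the lysosomal genes from 1 to 2 (5, 3 and 2 without AVP replicate 2, and 2 lysosomal rises also without control replicate 2 or 3), and the medians ranged from -0.25 to -0.20 and from -0.21 to -0.13. Values near 0 changed sign: Atg4b and Gla were 0.022 and 0.024 with library size alone. With 1 sample left out, Atg4b ranged from -0.055 to 0.0087, Gla from -0.10 to 0.052 and Lamp2 from -0.080 to 0.013; positive values came without AVP replicate 2 or control replicate 2 for Atg4b, those or AVP replicate 1 for Gla, and AVP replicate 1 or control replicate 2 for Lamp2. The cause of these shifts was not tested. The replicate number as a block changed 1 call, that of Ctsd, and gave 28 falls and 2 rises. Deviations of same-numbered samples correlated at -0.05 to 0.08, which showed no pairing by number, but so few samples cannot exclude it. Every library held 106 counts or more for each of the 46 genes, and the SE of the log2 fold change was 0.18 for Mitf, the gene with the fewest; whether depth limited the calls was not tested.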
